A study of Rattus norvegicus with 6 samples.

Results

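NONCODE lncRNAs that lie far from genes were examined in the ipsilateral lumbar spinal cord of rats with bone cancer pain (BCP) and of sham-operated rats. A transcript was taken when its identifier begins NONRATT and its whole span lies more than 10000 bp from the locus of every gene with counts in at least 1 library. The rule used positions and the presence of counts but no difference between the groups. It selected 1566 of the 22783 lncRNAs with values (6.87%), or 7.77% of the 20148 NONCODE lncRNAs. Of the other NONCODE lncRNAs, 15512 overlapped a gene with counts and 3070 lay within 10000 bp of one. All positions are those of the Rnor_6.0 assembly as the deposited tables give them, and the tables give no strand.

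The BCP group consisted of adult female Wistar rats that had received living Walker 256 cells, a rat mammary carcinoma line, in the medullary cavity of the left tibia, and the sham group had received heat-killed cells of the same line by the same operation. Both groups therefore carried the injury to the bone and an injection of tumor cells, living or dead, and an animal without surgery was not part of the comparison. Tissue was taken on day 14 from the lumbar enlargement, on the side of the tumor and without meninges, and total RNA depleted of ribosomal RNA was sequenced in 3 libraries per group. Nothing in the labels says whether a library was made from a single animal, so p-values measure the spread between these libraries. The lncRNA counts ranged from 1946315 to 2531114 per library and the gene counts from 11779485 to 15004290.

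Long noncoding RNAs are transcripts without a protein-coding frame, many of them spliced and capped like mRNAs. Those that lie between genes are called intergenic. Many are transcribed weakly and in few cell types, some stay in the nucleus and act on chromatin or on splicing, and of most no function is known. NONCODE is a database that collects such transcripts from the literature and from other databases, so an entry shows that a transcript was once observed and not that it acts as RNA. A distance limit keeps out most transcripts that could be an extension of a neighboring mRNA, although genes missing from an annotation are not kept out in this way.

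Of the lncRNAs described here, NONRATT003583.2 was the only one called in the comparison that the table also names by a RefSeq record, and its sequence context is therefore shown first. RefSeq places this RNA, under the symbol LOC100910973, on the minus strand of chromosome 1 in the GRCr8 assembly with 2 transcription starts that lie 1362 bp apart. The windows below run from 250 bases before to 50 bases after each start, 5′ to 3′, at chr1:217133198-217133497 and chr1:217131836-217132135 (GRCr8, minus strand, sequences from RefSeq). Capitals mark the only match to GAAANNGAAA, the core of the interferon-stimulated response element, to which interferon regulatory factors and the STAT complex of type I interferon signaling bind.
LOC100910973 start 1: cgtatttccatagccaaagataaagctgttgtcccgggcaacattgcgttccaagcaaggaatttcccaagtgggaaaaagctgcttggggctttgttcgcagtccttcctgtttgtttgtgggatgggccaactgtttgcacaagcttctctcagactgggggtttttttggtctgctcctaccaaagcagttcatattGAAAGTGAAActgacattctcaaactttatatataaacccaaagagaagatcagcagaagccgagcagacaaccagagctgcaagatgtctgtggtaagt
LOC100910973 start 2: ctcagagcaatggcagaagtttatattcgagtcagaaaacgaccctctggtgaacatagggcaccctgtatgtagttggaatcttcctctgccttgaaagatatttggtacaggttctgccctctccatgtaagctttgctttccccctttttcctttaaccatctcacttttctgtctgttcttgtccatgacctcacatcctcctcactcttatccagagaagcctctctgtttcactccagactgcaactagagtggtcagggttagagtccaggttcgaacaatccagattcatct
The match, GAAAGTGAAA, begins at position -50 of the more upstream start, where -1 is the base before the start, and the other window held none. The tables do not say which start belongs to NONRATT003583.2. Its span of 1547 bp in Rnor_6.0 equals the 1547 bp from the second start to the end of the RefSeq gene in GRCr8, and the match lies at the first start. GAAANNGAAA, searched on both strands, occurred in 3.92% of the 33469 promoter windows of RefSeq genes in GRCr8. TTCNNNGAA, the core of the gamma-activated site of STAT dimers, occurred in 8.87% of the windows and in neither of these. TATAAA, the core of the TATA box, occurred in 14.2% of the windows, and in the first window it was found at position -19 in the direction of transcription and at -25 on the other strand, and in the second window at -231 on the other strand. A match of letters is a description and not a site shown to be bound. The sequences of the NONCODE transcripts themselves were not used here.

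The lncRNAs far from genes lay on 21 chromosomes, with 190 on chromosome 1, 132 on chromosome 2, 119 on chromosome 4 and the fewest, 27, on chromosome 20. Their median distance to the nearest gene with counts was 41931 bp (quartiles 20333 and 110802 bp). The distance exceeded 100 kb for 417 and 1 Mb for 17 of them. The median transcript length was 572 bases, with a range from 214 to 8474, against 767 bases for NONCODE lncRNAs within 10000 bp of a gene and 643 for those overlapping one. In 957 (61.1%) the transcript was as long as its span, so it consisted of a single block without introns, against 80.7% of those within 10000 bp, 39.6% of those overlapping a gene and 42.2% of all lncRNAs. The word unspliced is part of the name of 909 of them. For 1491 (95.2%) the table names the same single source. Another lncRNA of the table was overlapped by 289 (18.5%), and for these the assignment of reads between the overlapping entries is uncertain. Neighbors were often close: 414 of the 1566 lay within 10000 bp of another, in 169 stretches, and 1152 stood alone.

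**Figure D1:**
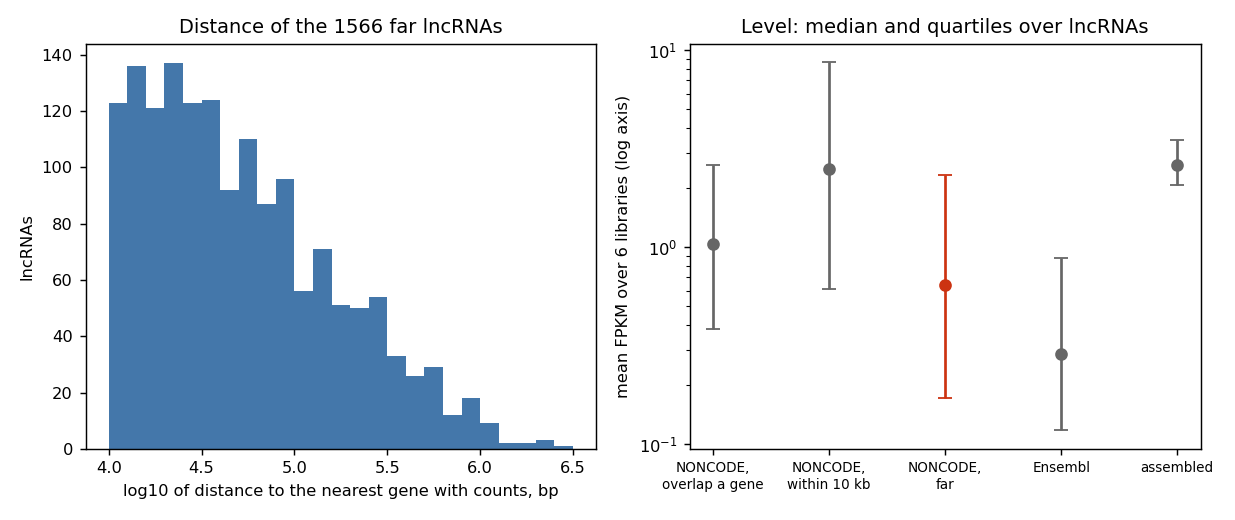
Left, the number of far NONCODE lncRNAs by log10 of the distance in bp to the nearest gene with counts. Right, the mean FPKM over the 6 libraries on a log axis, with the median (point) and quartiles (bars) over the lncRNAs of each class; the far NONCODE lncRNAs, in red, had a median of 0.641 FPKM.

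The median of the mean FPKM over the 6 libraries, a level per transcript length and library size, was 0.641 for the far lncRNAs, against 2.48 for NONCODE lncRNAs within 10000 bp of a gene, 1.03 for those overlapping a gene and 1.21 for all lncRNAs. An FPKM of at least 1 was reached by 647 (41.3%). Between 1282 and 1321 of the 1566 had a count in a single library and 981 had counts in all 6. Over all libraries together 436 had fewer than 10 counts, 447 had at least 100 and 70 at least 1000. The plot of distances and levels shows that the FPKM of the classes overlapped widely.

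Most counts belonged to very few transcripts. NONRATT003468.2 held 53.0% of all counts on far lncRNAs, NONRATT003466.2 held 24.3% and NONRATT003467.2 held 1.80%. All 3 are unspliced entries at chr1:221152844-221158798, between 23199 and 26723 bp from the nearest gene with counts. They also had the highest mean FPKM, 3952, 4983 and 1346, and no other far lncRNA exceeded 158. How reads with several genomic locations were counted is not given in the sources used here, so these values are those of the listed entries and of any copies that share their sequence. NONRATT003468.2 was counted at 155441, 143994 and 171328 in sham libraries and at 132611, 140601 and 131644 in BCP libraries. As CPM, that is, scaled to the library's total of lncRNA counts after TMM normalization, this gave 68727 ± 5191 and 65488 ± 3217 (SD, n = 3), and the libraries of the groups overlapped. NONRATT003466.2 had 32025 ± 1676 CPM in the sham and 29595 ± 977 in BCP libraries, with a log2FC of -0.11 (SE 0.042) whose adjusted p was 0.313.

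The far lncRNAs took 12.9%, 12% and 12.5% of the lncRNA counts in sham libraries and 12.7%, 12.2% and 12.1% in BCP libraries. The means of 12.5% ± 0.491 and 12.3% ± 0.312 (SD, n = 3) differed by -0.145 percentage points, less than the spread in either group (exact permutation test, two-sided, p = 0.7). The sign of this small difference rested on single libraries, since it was 0.0994 without sham library 1. The share without the 3 abundant entries of chromosome 1 was 2.48%, 2.57% and 2.46% in sham libraries and 2.65%, 2.70% and 2.66% in BCP libraries. Here every BCP library lay above every sham library, and the means were 2.50% ± 0.0559 and 2.67% ± 0.0285, a difference of 0.166 (exact permutation test, two-sided, p = 0.1, the smallest p that 3 libraries against 3 allow). After the 10 entries with the most counts were left out, the shares were 1.97% ± 0.0361 and 2.03% ± 0.0168, with the same p. Of the difference of 0.166, 0.147 came from NONRATT003582.2, described below. It took 0.0228% ± 0.00885 of the lncRNA counts in sham libraries and 0.170% ± 0.0301 in BCP libraries. It is among the 10 entries with the most counts, so the separation without those 10 did not rest on it. Without this entry as well as the 3 abundant ones, which was computed after the values were seen, the shares were 2.45%, 2.54% and 2.45% in sham libraries and 2.51%, 2.51% and 2.48% in BCP libraries, so the groups overlapped and the means differed by 0.0189 (exact permutation test, two-sided, p = 0.8). In a piece of tissue, fewer cells of a type and less RNA per cell cannot be told apart in such shares or in any level given below.

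**Figure D2:**
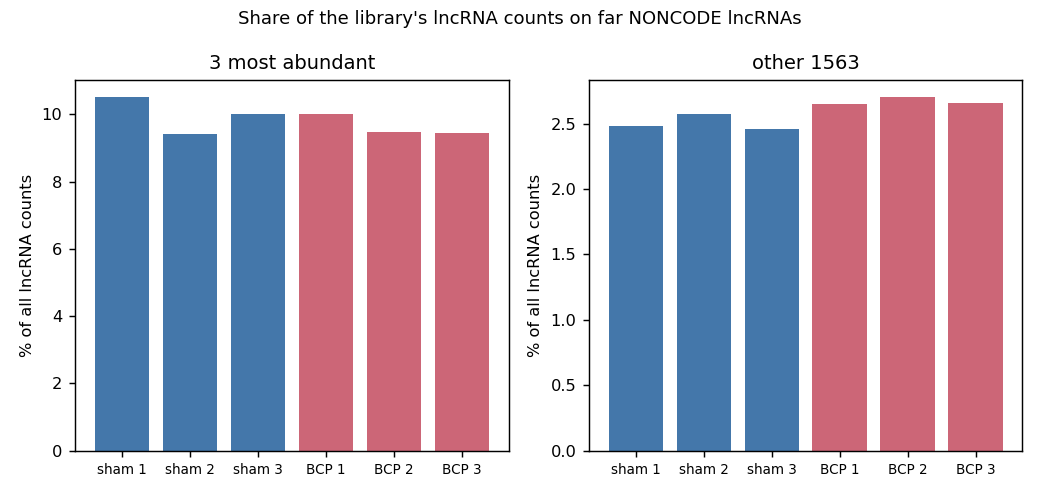
Percentage of each library's lncRNA counts that fell on the 3 most abundant far NONCODE lncRNAs (left) and on the other 1563 (right), 1 bar per library, sham in blue and BCP in red. On the left the groups overlap, and on the right the BCP libraries (2.65% to 2.70%) lie above the sham libraries (2.46% to 2.57%). This is no longer so when only NONRATT003582.2 is left out of these 1563.

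The composition of the samples is given here because it moved with the groups. Neurons, oligodendrocytes, astrocytes and the Hox genes of the lumbar cord were detected in all libraries, as the label of the tissue states, and the summed level of the 3 Hox genes found was 80.7 to 111 CPM. Among all 14908 tested genes, 6.35% were called higher in BCP libraries and 0.107% lower. Of the marker lists, 6 of 6 MHC class II genes were up-regulated (summed level 16.8 to 23.9 CPM in the sham and 1510 to 1660 in BCP libraries), as were 5 of 5 T cell genes (0 to 0.279 and 15 to 20.8 CPM), 5 of 8 microglia genes (224 to 285 and 615 to 724 CPM) and 2 of 3 red blood cell genes (172 to 177 and 295 to 455 CPM). No gene was called in the lists of oligodendrocytes (36828 to 41977 and 26267 to 29420 CPM), astrocytes (3214 to 3545 and 4955 to 6708 CPM), neurons (3039 to 3176 and 2828 to 3056 CPM), motor neurons (210 to 246 and 185 to 219 CPM), meninges and fibroblasts (27.9 to 47.8 and 42.1 to 97.4 CPM, with 1 of 4 genes at 0) or dorsal root ganglion and nerve root (294 to 316 and 214 to 262 CPM), and 1 of 2 tested skeletal muscle genes was lower. The part of these differences in the results below was not tested.

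In the fit of edgeR's quasi-likelihood test to the whole lncRNA table, in which 12157 lncRNAs passed the filter on low counts, 6 far lncRNAs were up-regulated in BCP libraries, against a background of 1.14% of all tested lncRNAs. None was down-regulated, against a background of 0.0740%. A transcript was called when its Benjamini-Hochberg adjusted p was under 0.05 and its log2FC over 1 in either direction. The filter kept 633 of the 1566 (40.4%, against 66.5% of NONCODE lncRNAs within 10000 bp of a gene and 49.1% of those overlapping one), so the share called was 0.948% of those tested, near the background. The other 933 had at most 78 counts in all libraries together, and this fit tested no difference for them. To pass, a transcript needed a minimum level in as many libraries as a group holds, whichever group these were in. The sham libraries alone would not have passed NONRATT008997.2, NONRATT003583.2, NONRATT015038.2 and NONRATT010716.2 of the 6, nor NONRATT008998.2, which was not called. These entered the test through the BCP libraries, in which they were higher. In the nearer classes 31 of 2042 and 92 of 7619 tested lncRNAs were called higher (1.52% and 1.21%). DESeq2 also called none of the far lncRNAs lower, and the unadjusted p of the quasi-likelihood test was under 0.05 for 85 of the 633 in either direction (13.4%, against 13.3% of all tested lncRNAs).

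Across the 633 tested the median log2FC was -0.06 (quartiles -0.29 and 0.19), against -0.01 over all tested lncRNAs, with 276 above and 357 below 0. The scaling of the libraries moved this median between -0.09 and -0.02. All BCP libraries lay above all sham libraries for 70 of them (11.1%, against a background of 11.0%) and below for 77 (12.2%, against 9.65%). Of the 633, 20 had a log2FC over 1, 18 of them with libraries that did not overlap, and 8 had a log2FC under -1, 6 of them without overlap. The same counts over all tested lncRNAs are not given here. Transcripts taken for a large change also tend to have groups that do not overlap, so these counts have no background. The largest decrease was that of NONRATT027696.2 (chr8:56626341-56627069, named Rdx), with 55, 71 and 28 counts in sham libraries and 19, 15 and 14 in BCP libraries, a log2FC of -1.54 with an adjusted p of 0.122. Without sham library 3 it was called (log2FC -1.86, adjusted p = 0.0416, and 0.0416 to 0.336 over 13 alternatives). Of the increases that were not called, NONRATT016829.2 (chr2:225962900-225984143) had 7, 1 and 3 counts in sham libraries and 16, 20 and 26 in BCP libraries (log2FC 2.59, adjusted p = 0.0596, 0.0385 with a log2FC of 3.46 without sham library 1 and up to 0.238 over 13 alternatives). Both were chosen after their values were seen. With the adjusted p alone, 9 were higher and 2 lower (background 1.57% and 0.395%).

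**Figure D3:**
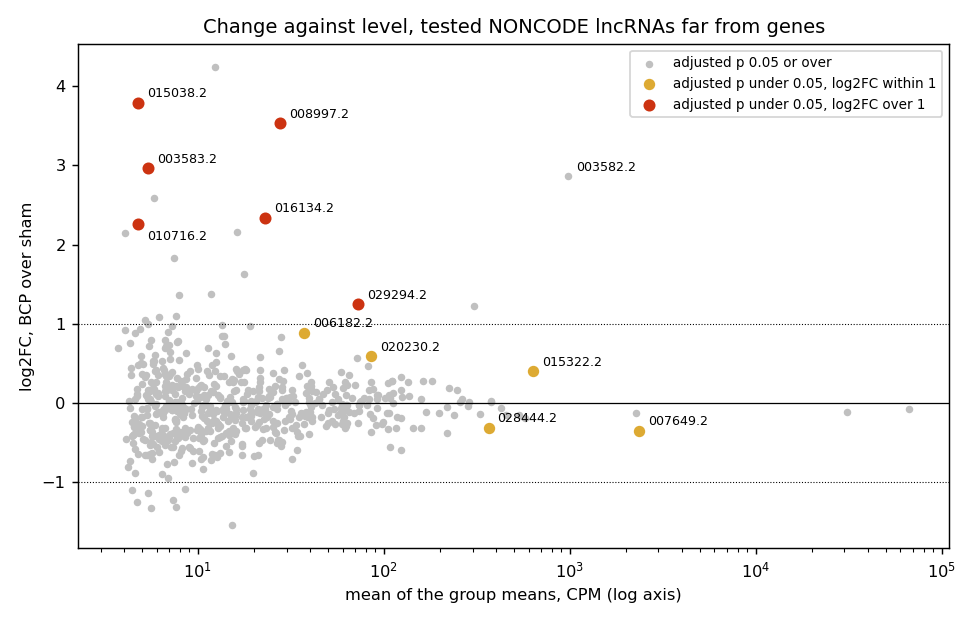
The log2FC of each of the 633 tested far NONCODE lncRNAs (vertical axis) against the mean of the group means in CPM (horizontal log axis), with dotted lines at a log2FC of 1 and -1 and labels without the prefix NONRATT. The 6 called transcripts (red) all lie above 1, and the 5 with an adjusted p under 0.05 and a smaller change (yellow) lie between -0.35 and 0.89.

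The smallest p among the far lncRNAs belonged to NONRATT008997.2, a spliced transcript of 509 bases at chr13:92032691-92036186, which the table names HIN.0 after the domain of the interferon-inducible HIN-200 proteins. It had 5, 16 and 9 counts in sham libraries and 90, 119 and 107 in BCP libraries. The groups were widely apart, at 4.34 ± 2.39 and 50.9 ± 3.86 CPM (SD, n = 3), a log2FC of 3.53 (SE 0.34, adjusted p = 0.00290). It stayed called in each of the 6 fits that left out 1 library. On its right, at 37482 bp, the nearest gene with counts was Mnda, a HIN-200 family member of myeloid cells, with 0.305, 0.0698 and 0.0676 CPM in sham libraries and 3.13, 2.86 and 4.16 in BCP libraries (log2FC 4.48, SE 0.46, adjusted p = 2.95e-07). On its left, at 51259 bp, AABR07021804.1 was also up-regulated (log2FC 2.49, SE 0.34, adjusted p = 1.75e-05).

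Within 250 kb of NONRATT008997.2, 5 of 6 tested genes were up-regulated. Beside Mnda and AABR07021804.1 these included Aim2, a cytosolic DNA sensor with a HIN domain (log2FC 2.74), and Olr1584, named as an olfactory receptor (5.45). A further far lncRNA, NONRATT008998.2, lies 9933 bp to the right and is named Ifi203 in the table, after another interferon-inducible HIN-200 gene. Its counts were 8, 0 and 0 in sham libraries and 27, 56 and 64 in BCP libraries. All BCP libraries were above all sham libraries, but with the sham counts in 1 library only the log2FC of 4.24 (SE 1.0) had an adjusted p of 0.147, and without sham library 1 it was called with a log2FC of 8.68, fitted against sham libraries without a count and so no bound on the change (adjusted p = 0.0154, against 0.0154 to 0.456 over 13 alternatives). The red blood cell and microglia lists given above were also higher in BCP libraries, and their part in this neighborhood was not tested.

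NONRATT016134.2 had the next smallest p of the 6 called transcripts. It spans chr2:52726254-52809406 with a transcript of 701 bases and had 15, 19 and 18 counts in sham libraries and 47, 102 and 93 in BCP libraries. The levels were 7.58 ± 0.654 and 38.6 ± 12.3 CPM (SD, n = 3), with BCP library 1, at 24.5 CPM, below the other BCP libraries and above every sham library. The log2FC was 2.34 (SE 0.29, adjusted p = 0.00806), and the transcript stayed called when any library was left out. The nearest genes with counts were AABR07008298.1 at 107166 bp on the left and AABR07008319.1 at 46265 bp on the right, with at most 2 counts in any library.

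NONRATT015038.2, at chr2:52825921-52830428, begins 16515 bp beyond the end of NONRATT016134.2. Its counts were 3, 1 and 0 in sham libraries and 16, 16 and 23 in BCP libraries. The log2FC was 3.79 (SE 0.66, adjusted p = 0.0286), and the ratio of the normalized counts was 15.2 with a 95% exact interval of 5.62 to 57.8 that covers counting error only. Without sham library 1 the log2FC was 5.04 (adjusted p = 0.0347, and 0.0107 to 0.150 over 13 alternatives). With any other library left out it was 3.20 to 3.91 with an adjusted p of 0.0637 to 0.150, so the call rested on all of the other 5 libraries. The entry NONRATT015040.2 lies within its span and was not tested, with 1, 3 and 0 counts in sham libraries and 7, 9 and 9 in BCP libraries. The other entries nearby, NONRATT015037.2, NONRATT015041.2 and NONRATT016135.2, had at most 13 counts in a library.

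The same stretch of chromosome 2 held entries whose counts varied within the groups. NONRATT015033.2, NONRATT015035.2 and NONRATT015036.2 overlap each other at chr2:52672477-52679413. NONRATT015035.2 had 310, 28 and 257 counts in sham libraries and 406, 16 and 43 in BCP libraries, NONRATT015036.2 had 66 counts in BCP library 2 and none elsewhere, and NONRATT015033.2 had 33 in BCP library 2 and at most 2 elsewhere. Their sum was 310, 29 and 257 in sham libraries and 406, 115 and 45 in BCP libraries, so the groups overlapped and each group spread over most of the range of the other. The map of neighborhoods shows these entries to the left of NONRATT016134.2.

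**Figure D4:**
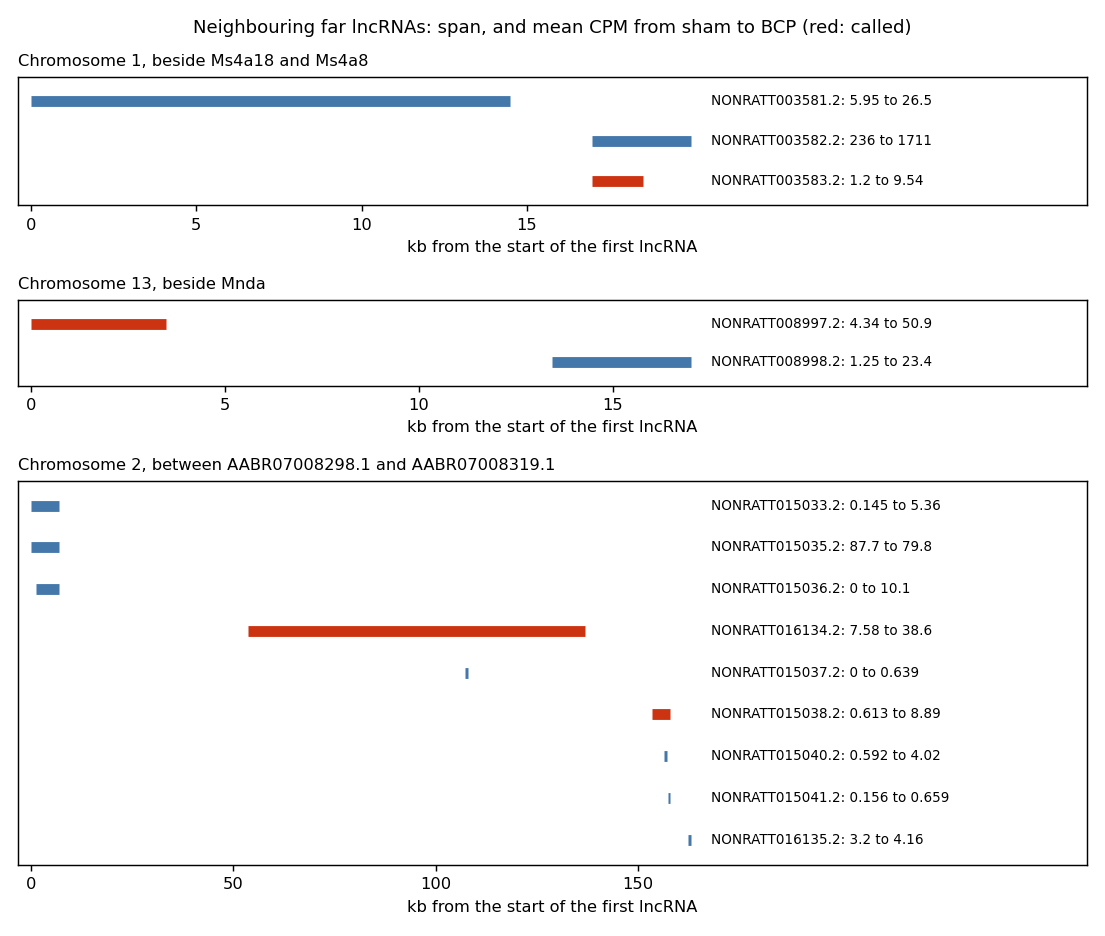
Spans of neighboring far NONCODE lncRNAs in kb from the start of the first, 1 bar per entry, with the mean CPM of the sham and of the BCP libraries (n = 3 each) written beside it; called entries are red. On chromosome 1 the level of NONRATT003582.2 went from 236 to 1711 CPM, and on chromosome 2 the called entries NONRATT016134.2 and NONRATT015038.2 lie side by side.

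NONRATT003583.2, named after a record of LOC100910973, whose promoter windows are given above, lies at chr1:227110936-227112482 in a cluster of Ms4a genes, which encode membrane-spanning proteins found mainly in immune cells. It had 4, 3 and 1 counts in sham libraries and 18, 18 and 23 in BCP libraries. The levels were 1.20 ± 0.734 and 9.54 ± 1.37 CPM (SD, n = 3), a log2FC of 2.96 (SE 0.47, adjusted p = 0.0207). It stayed called without sham library 1, and with any other library left out the adjusted p was 0.0548 to 0.114. The nearest genes with counts, Ms4a18 at 43021 bp on the left and Ms4a8 at 23672 bp on the right, had at most 3 counts in a library and were not tested. Within 250 kb, 2 of 6 tested genes were up-regulated, Cd6, a receptor of T cells (log2FC 2.13, SE 0.25, adjusted p = 1.51e-06), and Slc15a3, a lysosomal transporter of peptides and histidine (log2FC 1.67, SE 0.15, adjusted p = 4.83e-08). As given above, the T cell and microglia lists were also higher in BCP libraries, and their part in this neighborhood was not tested.

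The entry NONRATT003582.2 (chr1:227110934-227113945, named RGD1566254) covers the whole span of NONRATT003583.2, so the division of reads between them is uncertain. It was by far the more abundant, with 654, 619 and 323 counts in sham libraries and 2633, 4191 and 3851 in BCP libraries. The levels of 236 ± 90.9 and 1711 ± 297 CPM (SD, n = 3) did not overlap, and sham library 3 was the lowest. The log2FC was 2.86 (SE 0.40), but the adjusted p of edgeR's robust quasi-likelihood test was 0.0623 and the transcript was not called. The paper counts it among its differentially expressed lncRNAs and reports a significant increase by RT-qPCR in a separate batch of samples. Over 13 alternatives the adjusted p ranged from 2.00e-11, with DESeq2, to 0.312, and the log2FC from 2.56 to 3.07. Without sham library 3 the adjusted p was 0.0196. To the left, NONRATT003581.2 ends 2467 bp before it and had 14, 25 and 1 counts in sham libraries and 28, 80 and 59 in BCP libraries (log2FC 2.16, SE 0.86, adjusted p = 0.376). In each of the 3 neighboring entries sham library 3 was the lowest library. Their summed counts were 672, 647 and 325 in sham libraries and 2679, 4289 and 3933 in BCP libraries.

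NONRATT029294.2, an unspliced transcript of 1668 bases at chr9:37790938-37792605, was the called transcript with the most counts. It had 116, 101 and 75 counts in sham libraries and 179, 221 and 234 in BCP libraries, or 43.1 ± 11.6 and 102 ± 9.28 CPM (SD, n = 3). The log2FC of 1.25 (SE 0.20, adjusted p = 0.0217) was the smallest of the 6, and the call was lost without sham library 2 or without any BCP library (adjusted p 0.0518 to 0.106). It lies 10971 bp to the right of Ccdc115, which encodes an assembly factor of the vacuolar proton pump, just outside the limit of the rule. Ccdc115 was not called, at 28.5, 36.8 and 32.3 CPM of the gene table in the sham and 46.0, 48.5 and 46.0 in BCP libraries (log2FC 0.52, SE 0.087, adjusted p = 0.000113). On the other side, at 109698 bp, Dst, which encodes a linker of cytoskeletal filaments, had a log2FC of -0.11.

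NONRATT010716.2, an unspliced transcript of 377 bases at chr15:2327359-2327735, completed the called group with 4, 5 and 2 counts in sham libraries and 16, 16 and 17 in BCP libraries. The levels were 1.63 ± 0.710 and 7.93 ± 0.524 CPM (SD, n = 3), a log2FC of 2.26 (SE 0.42, adjusted p = 0.0381). The call was lost when any library was left out, with an adjusted p of 0.106 to 0.175, and with DESeq2 (0.131, within 0.0357 to 0.175 over 13 alternatives). AABR07016856.1, at 10680 bp on the right, had 8, 15 and 10 counts in sham libraries and 16, 18 and 16 in BCP libraries (log2FC 0.71, SE 0.37, adjusted p = 0.174), and the nearest gene on the left lay 709208 bp away.

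**Figure D5:**
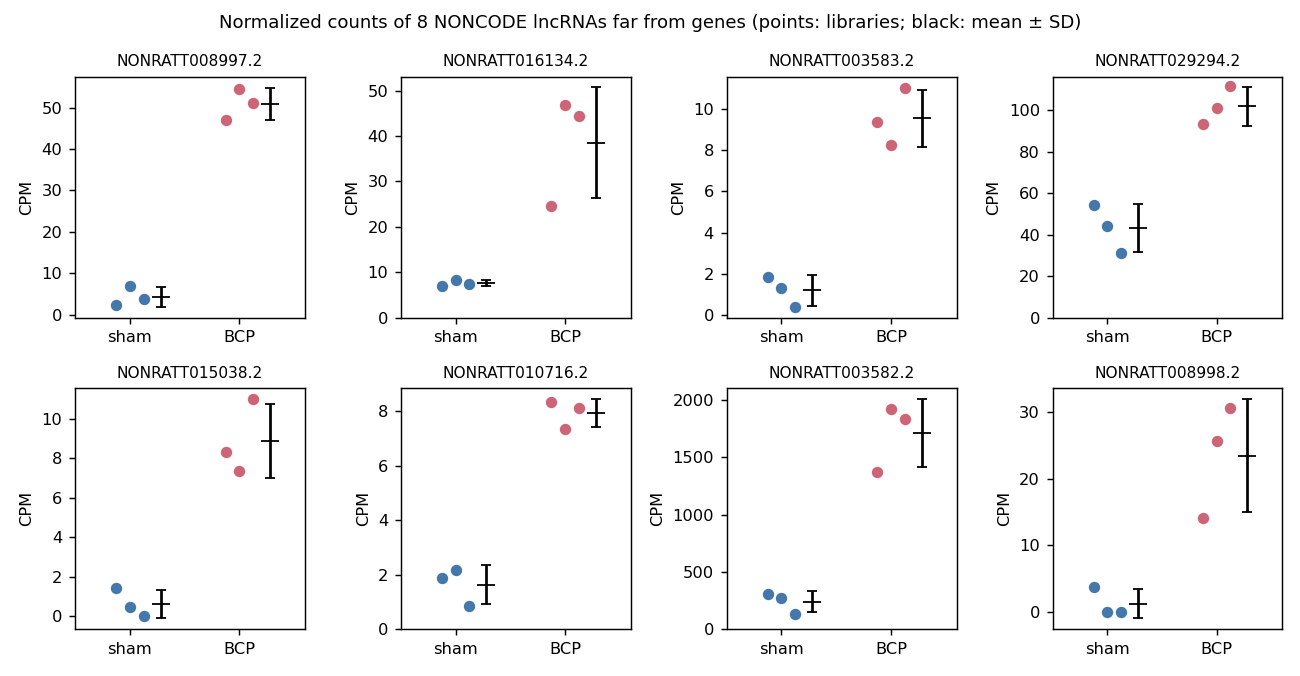
CPM (vertical axes, from 0, each with its own scale) of the 6 called far NONCODE lncRNAs and of NONRATT003582.2 and NONRATT008998.2 in the sham (blue) and BCP (red) libraries. Points are libraries 1 to 3 from left to right, and black marks give the mean ± SD (n = 3); in all 8 panels the BCP libraries lie above the sham libraries.

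Within the distances that the rule allows, the 6 called transcripts lay between 10680 and 46265 bp from the nearest gene with counts, so none was among the 711 that lie more than 50000 bp away. NONRATT029294.2 had 75 to 116 counts in sham libraries, and the other 5 had at most 19. The nearest tested gene was itself up-regulated for 1 of the 6, against 15 of the 633 tested far lncRNAs (2.37%). A gene called higher lay within 250 kb of 2 of the 5 called transcripts with a tested gene in that range, against 89 of the 539 tested far lncRNAs with such a gene (16.5%).

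A smaller change was called by the adjusted p alone for 5 far lncRNAs. NONRATT007649.2 is Miat, a nuclear lncRNA that is abundant in neurons and takes part in the control of splicing, and it is the longest of the transcripts with 8474 bases at chr12:50447251-50461859. It had 5551, 6232 and 6437 counts in sham libraries and 4183, 4421 and 4243 in BCP libraries. Every BCP library was lower, at 2078 ± 87.6 against 2657 ± 63.0 CPM (SD, n = 3), a log2FC of -0.35 (SE 0.040, adjusted p = 0.00546, and 0.00753 to 0.0354 with single libraries left out). Its nearest genes with counts were Cryba4, a lens crystallin gene with at most 7 counts in a library, at 32819 bp and Mn1 at 752333 bp. The neuron list, in which no gene was called, stood at 3039 to 3176 CPM in the sham and 2828 to 3056 CPM in BCP libraries.

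NONRATT028444.2, an unspliced transcript at chr8:46228074-46229908 that lies 183698 bp from the nearest gene with counts, was the other one that was lower. It had 868, 910 and 999 counts in sham libraries and 626, 716 and 682 in BCP libraries (log2FC -0.31, SE 0.054, adjusted p = 0.0296). NONRATT028445.2 begins 205 bp beyond it and had 559 ± 19.8 CPM in the sham and 505 ± 21.5 CPM in BCP libraries (SD, n = 3), a log2FC of -0.15 (SE 0.056) that did not pass (adjusted p = 0.310). For NONRATT028444.2 the adjusted p was 0.0835 to 0.116 with single libraries left out.

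NONRATT015322.2, at chr2:150880089-150882779, was higher in BCP libraries with 1194, 1281 and 1278 counts in the sham and 1301, 1589 and 1611 in BCP libraries (log2FC 0.40, SE 0.060, adjusted p = 0.0158). It lies 10399 bp from Mbnl1, which encodes a regulator of alternative splicing and had a log2FC of 0.32 (SE 0.058, adjusted p = 0.000255). NONRATT006182.2, at chr10:94850971-94851981, is named Pecam1 in the table, after an adhesion molecule of endothelial and blood cells. It had 60, 55 and 64 counts in sham libraries and 90, 96 and 114 in BCP libraries, the largest change of these 5 (log2FC 0.89, SE 0.16, adjusted p = 0.0313). NONRATT020230.2, at chr4:32666236-32666720, had 140, 157 and 174 counts in sham libraries and 190, 219 and 229 in BCP libraries (log2FC 0.59, SE 0.11, adjusted p = 0.0359). With single libraries left out, the adjusted p ranged from 0.0758 to 0.137 for NONRATT006182.2, from 0.0757 to 0.139 for NONRATT020230.2 and from 0.0177 to 0.0690 for NONRATT015322.2.

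After the 3 entries of chromosome 1 and NONRATT003582.2, the highest mean FPKM, 115, belonged to NONRATT021208.2, an unspliced transcript of 380 bases at chr4:28343194-28343573. It had 557, 441 and 233 counts in sham libraries and 645, 1194 and 849 in BCP libraries. The groups did not overlap, at 96.2 to 260 and 336 to 548 CPM, but the log2FC of 1.23 (SE 0.44) had an adjusted p of 0.356. NONRATT015410.2, NONRATT008889.2, NONRATT028445.2, NONRATT008891.2 and NONRATT016064.2, with a mean FPKM of 54.2 to 94.0, had a log2FC between -0.15 and 0.28 and did not pass the threshold. NONRATT008891.2, which had the largest of these values, had 164 ± 12.4 CPM in the sham and 199 ± 6.67 in BCP libraries (SD, n = 3, adjusted p = 0.192).

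The far lncRNAs with the largest distance to a gene lay on chromosomes 13 and X. NONRATT008605.2 was 2543122 bp away, NONRATT030644.2 and NONRATT030645.2 on chromosome X 2393308 and 2324933 bp, and NONRATT008127.2 and NONRATT008129.2 on chromosome 13 2078096 and 1891652 bp. NONRATT008127.2, a transcript of 274 bases, had 156, 176 and 202 counts in the sham and 193, 202 and 185 in BCP libraries, a mean FPKM of 44.8, with a log2FC of 0.27 (SE 0.11, adjusted p = 0.353). NONRATT030644.2 had 41 to 51 counts in the sham and 43 to 49 in BCP libraries, and the other 3 had at most 5 counts in a library and were not tested.

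Some entries varied strongly between libraries of the same group, and most of these overlap another entry. NONRATT003470.2 lies within the span of the abundant NONRATT003468.2 and had 0, 67 and 0 counts in sham libraries and 53, 34 and 5 in BCP libraries. NONRATT033857.1, at chrX:115401062-115412773, had 54, 0 and 24 counts in sham libraries and 50, 1 and 1 in BCP libraries. NONRATT015036.2, NONRATT015035.2 and NONRATT003581.2, described above, completed the group with the widest spread. Only NONRATT003581.2 of these 5 overlaps no other lncRNA of the table.

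Transcripts with counts in a single group were also seen among those not tested. No count in any sham library was found for 67 far lncRNAs (4.28%, against 1.67% of all lncRNAs), of which 18 had a count in every BCP library (1.15%, against 0.448% of all). No count in any BCP library was found for 60 (3.83%, against 1.56%), of which 8 had a count in every sham library (0.511%, against 0.263%). Both shares were thus above those of all lncRNAs. The far lncRNAs also had lower levels, with a median of the mean FPKM of 0.641 against 1.21. The part of these levels in the shares was not tested. NONRATT026977.2, at chr7:100478197-100528037 and 517171 bp from the nearest gene with counts, had no count in sham libraries and 11, 17 and 9 in BCP libraries. Taking 3 counts over the sham group as the floor and the 37 BCP counts as exact, the ratio of BCP to sham was at least 13.7. This bound covers counting error in the sham counts only. It leaves out counting error in the BCP counts and the spread between libraries. NONRATT026977.2 did not pass the filter on low counts, and in the fit without that filter its adjusted p was 0.0469. In the other direction NONRATT012919.2 (chr17:31107366-31130662) had 5, 3 and 5 counts in sham libraries and none in BCP libraries. Both were chosen after their values were seen.

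The longest runs of neighboring far lncRNAs held no called transcript. At chr17:48596-357114, 10 overlapping entries, several of them named after the KRAB and zinc finger domains of a large family of transcriptional repressors, had 508, 488 and 562 counts together in the sham and 433, 551 and 516 in BCP libraries, and 8 of the 10 were tested. At chr1:137409276-137427306, 6 entries had 527, 605 and 629 counts in the sham and 505, 648 and 672 in BCP libraries, and their 5 tested members had a log2FC between 0.16 and 0.43. At chr1:175976677-175982486, 6 entries had 37, 42 and 43 counts in the sham and 47, 63 and 73 in BCP libraries. In this run the BCP libraries lay above the sham libraries, mostly through NONRATT001104.2, with 10, 8 and 4 counts in the sham and 12, 31 and 30 in BCP libraries (log2FC 1.83, SE 0.48, adjusted p = 0.123).

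The table names 10 of the far lncRNAs by a RefSeq record, and all 10 matched a RefSeq symbol, 9 symbols in all. Beside LOC100910973 and Miat these were Hmox2-ps1, a transcribed pseudogene, Mir344a-2, a microRNA gene, the lncRNA Pincl with 2 entries, and LOC102548399, LOC100911827, LOC100909941 and LOC102550367. The entry of Mir344a-2, NONRATT002726.2, had 15, 20 and 20 counts in sham libraries and 15, 17 and 15 in BCP libraries (log2FC -0.08, SE 0.27, adjusted p = 0.949). Its transcript of 214 bases is laid over a span of 63820 bp, whereas the RefSeq gene has 107 bases. These counts are those of the whole entry and were not taken as those of a mature microRNA. The entries of the other 6 symbols had at most 6 counts in a library and were not tested.

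At the limit of the rule, NONRATT002445.2 and NONRATT015160.2 were just inside, at 10002 and 10017 bp, with 8.61 and 48.4 CPM as the mean of the sham libraries and 5.07 and 43.0 CPM as the mean of the BCP libraries. NONRATT003651.2 and NONRATT028917.2 were just outside, at 9994 and 9988 bp, with 0.613 and 3.65 CPM in the sham and 0.471 and 2.89 CPM in BCP libraries.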

How the data were processed

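The 3 RNA-seq libraries of BCP and 3 of sham-operated rats were grouped by the labels of the samples. After filtering with Seqtk, the authors aligned reads to Rnor_6.0 by HISAT2 2.0.4 and used StringTie 1.3.0 for expression (versions from the submitters' processing notes). Their lncRNAs came from NONCODE, from Ensembl and from an assembly of these reads. For each gene and lncRNA the authors deposited raw counts and FPKM values per library. The counter and its use of strand are not given in the sources used here. Distances were computed between the nearest ends of whole spans.

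EdgeR 4.0.16 (R 4.3.3) was run on the counts of the whole lncRNA table and, separately, of the gene table, with TMM, filterByExpr, a robust quasi-likelihood fit without covariates and Benjamini-Hochberg adjustment. CPM are scaled to library totals with TMM factors of 0.979 to 1.02. SE were taken from the log2FC and the F statistic. The code was tested on simulated data. Library totals (see the report) limit precision, and counting intervals cover counting error only. Same-numbered libraries did not deviate together (correlations of -0.023 to 0.00714), so replicate numbers were not used to pair libraries.

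The set of lncRNAs and all lists were chosen with earlier results of these data known. Named were all called lncRNAs with their nearest genes, the one named in the paper (NONRATT003582.2), the 10 with the highest mean FPKM, the 5 farthest from a gene, the 5 with at least 50 counts in a library and the widest spread within a group, those next to the distance limit and the 3 longest runs. Those with an adjusted p under 0.05 alone, the neighborhoods and the RefSeq-named lncRNAs were added after values had been seen. Alternatives were DESeq2 1.42.0, other normalizations, filters, thresholds and distance rules, the replicate block, each library left out, and, added after seeing the data, a fit without robust estimation and a share without NONRATT003582.2. Plots were made in Python 3.11.15 (matplotlib 3.10.9).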

Additional observations from a re-analysis of the deposited data

How the results depend on the processing

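NONRATT008997.2 and NONRATT016134.2 stayed called in all 13 refits of the test. The count of 6 higher far lncRNAs was 2 with the replicate number as a block, a pairing that the libraries themselves did not show, 2 with an adjusted p under 0.01, 3 without entries that overlap another lncRNA, 0 with a distance over 50000 bp, and 2 to 7 with each library left out. It was 2 without BCP library 1, 2 or 3 or sham library 2. The other members of the 6 lost their calls there, and fewer libraries were tested by construction. No filter on low counts gave 4, of which 3 were among the 6. The fit without robust estimation gave 5 and DESeq2 gave 7, and both called NONRATT003582.2. DESeq2 also called NONRATT011927.2. The count of lower far lncRNAs was 0 except for 1 without sham library 3 (0 to 1 with each library left out) and 2 with no threshold on the fold change.

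The median log2FC of -0.06 was -0.02 with library size only, -0.09 with the gene table's library sizes, -0.03 with no filter, -0.08 with upper-quartile normalization and -0.06 to -0.04 with each library left out. The difference in share of -0.145 turned to 0.0125 with a distance over 50000 bp and to 0.0643 without the 10 entries with the most counts, and it was -0.392 to 0.0994 with each library left out. A distance over 50000 bp left 711 lncRNAs. The log2FC of NONRATT008889.2, 0.03, was -0.01 to 0.07 with each library left out, below 0 without sham library 1. The cause of these changes was not tested. The filter on low counts left 933 of the 1566 untested, and without it all 1566 were tested. The difference of 0.166 in the share other than the 3 most abundant entries was 0.0189 without NONRATT003582.2 too, and 0.145 to 0.198 with each library left out.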
